A study of Mus musculus with 20 samples.

Results

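Mice on a control diet gave 10 RNA-seq libraries of eWAT, the white fat pad along the epididymis, made from polyadenylated RNA. Control replicates 1 to 5 are set against Control replicates 6 to 10, with the contamination label of each library as a further term. These are 10 of the 20 libraries of the series. The other 10 come from random food restriction, a regime that combined intermittent fasting with 5% calorie restriction, and are called Restricted. The labels give no strain, genotype, age or sex, and do not say what the replicate numbers stand for or that each library is a separate animal. P-values therefore measure the spread between libraries, which may be technical. The contamination label, spelled "spermatozyte contamination" by the submitters, is Yes for Control 1, 2, 4, 5, 8, 9 and 10 and No for Control 3, 6 and 7. The tissue label says eWAT, while the extraction text names QUAD.

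The sets were chosen by the counts of skeletal muscle genes such as Ckm, Myh4 and Ttn, which Control 1 to 5 held and Control 6 to 10 lacked. Every count of the Control libraries entered that choice, so the Control contrast is given as a description, without p-values for single genes. A p-value for a single gene is given only for the same numbering among the Restricted libraries, which the choice did not use. Counts of called genes between the Control sets, and in comparisons of the diets that include those libraries, are descriptions too. Levels are CPM, read counts brought to a common library size and scaled with TMM factors of all 20 libraries. A gene is called here when the edgeR quasi-likelihood test gave a Benjamini-Hochberg adjusted p under 0.05.

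Library totals ran from 14306528 to 38789768 counts in the Control libraries and from 18291602 to 44061508 in the Restricted libraries. The markers of white adipocytes were present in all 10 Control libraries. Adipoq, which encodes the hormone adiponectin, lay at 3193 to 4190 CPM in Control 1 to 5 and at 3248 to 4217 CPM in Control 6 to 10. Plin1, which coats the lipid droplet, lay at 2653 to 2936 and at 2798 to 3261 CPM. One Restricted library, Restricted 1, also held muscle transcripts at high levels, and the main counts that it touches are given with and without it. Restricted 10 held smaller amounts and was kept throughout these counts.

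Skeletal muscle fibres contract by sliding myosin filaments along actin filaments in repeated units called sarcomeres. Titin, encoded by Ttn, spans the sarcomere, myosin heavy chains such as Myh4 drive the sliding, and the muscle creatine kinase Ckm buffers the ATP that myosin uses. Fast fibres that rely on glycolysis express Myh4, fast oxidative fibres Myh2, and slow fibres Myh7, with Myh1 between the first pair. Adipocytes do not form sarcomeres.

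The 3 markers separated the sets without overlap. Ckm was at 103, 50.9, 127, 125 and 109 CPM in Control 1 to 5, and at 0.0514, 0.0395, 0.0582, 0.421 and 0 CPM in Control 6 to 10. Myh4 was at 206, 126, 179, 340 and 300 CPM in Control 1 to 5, and at 0, 0.198, 0.0873, 0.737 and 0.366 CPM in Control 6 to 10. Ttn was at 831, 506, 193, 861 and 1187 CPM in Control 1 to 5, and at 0.668, 0.988, 0.785, 1.53 and 0.894 CPM in Control 6 to 10. All 5 libraries of the first set were high and all 5 of the second were at or near 0. Restricted 1 was higher than every Control library, at 214 CPM for Ckm, 625.1 CPM for Myh4 and 2216 CPM for Ttn. Restricted 10 held smaller amounts, with Ckm at 3.19 CPM and Myh4 at 8.55 CPM. In bulk tissue, a number of muscle cells and the RNA per cell cannot be told apart.

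**Figure D1:**
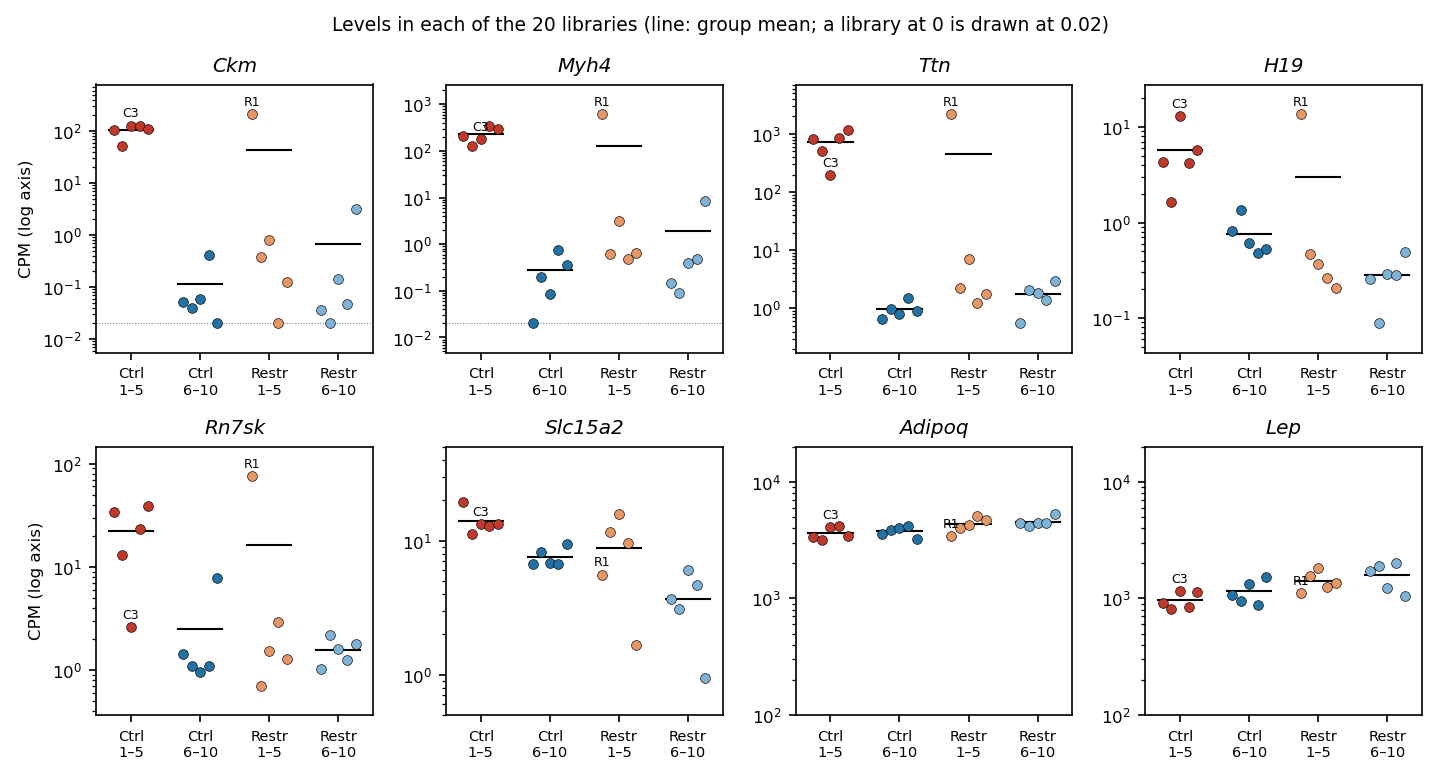
CPM on a log axis in each of the 20 libraries for 8 genes, with 1 point per library, a line at each group mean, C3 for Control 3 and R1 for Restricted 1. Ckm, Myh4, Ttn and H19 separate Control 1 to 5 from Control 6 to 10 and are high in Restricted 1, whereas Adipoq and Lep overlap between the Control sets.

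Between the Control sets, 102 of 17714 tested genes were called (0.576%), all 102 of them higher in replicates 1 to 5 and 0 lower. An unadjusted p under 0.05 was reached by 882 genes (4.98%). Of the 102, 70 were on the 5 muscle lists, which hold 132 genes, 111 of them tested, and 32 were on none of them. At least a 2-fold difference was seen in 94. The genes called took 0.177% to 0.339% of the counts in Control 1 to 5, 0.0334% to 0.0399% in Control 6 to 10, and 0.527% in Restricted 1. In 101 of the 102, Restricted 1 was the highest of the 10 Restricted libraries, the exception being Slc15a2. The share of all tested genes that were highest there was not counted. In 90 of the 102, Restricted 1 stood more than 1 above the others on the log2 scale, against 0.971% of all tested genes. The count depends on the model: 1 fit of all 20 libraries called 0, and the same fit without Restricted 1 called 107.

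**Figure D2:**
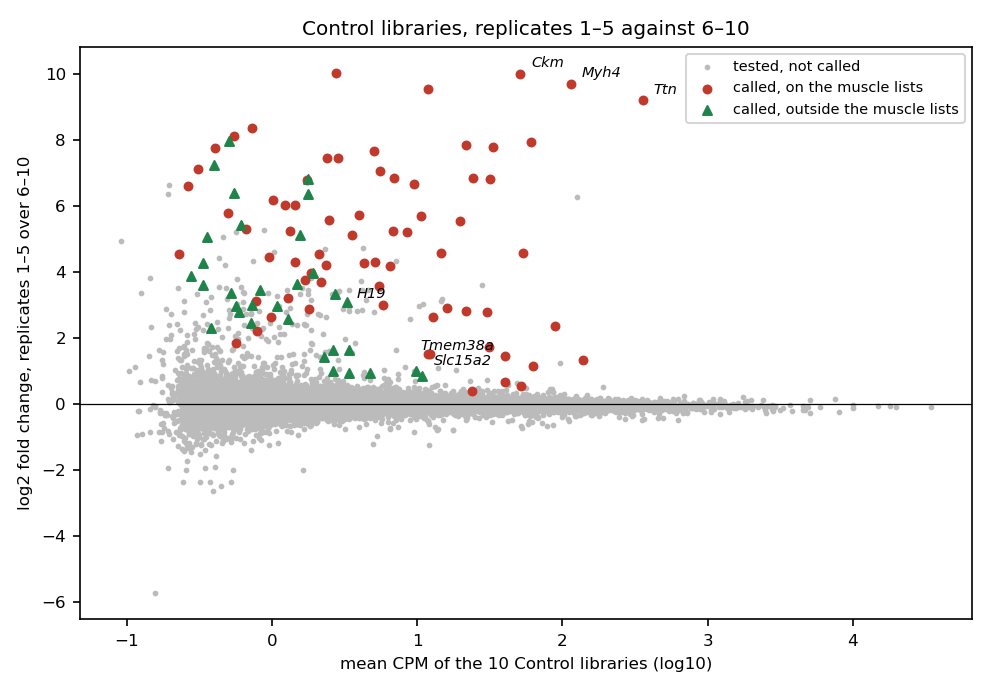
Log2 fold change of Control replicates 1 to 5 over 6 to 10 against mean CPM (log10), with 1 point for each tested gene; red circles are called genes on the muscle lists and green triangles the 32 called genes outside them. All 102 called genes lie above 0, and most other genes lie near 0 at every level.

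The sarcomere list held most of the muscle calls, with 39 of 46 tested members higher, 0 lower and a median log2 difference of 4.44. The median over all tested genes was 0.005. Tnnt3, the troponin T of fast fibres, had a mean of 120 CPM in Control 1 to 5 and 0.52 CPM in Control 6 to 10. Tnni2, its inhibitory partner, had 63.4 and 0.572 CPM. Of the genes of calcium handling and excitation, 11 of 22 were higher, with a median of 2.34. Atp2a1, the calcium pump of fast fibres, was at 29.0, 18.1, 174, 69.6 and 37.8 CPM in Control 1 to 5 and at no more than 0.632 CPM in Control 6 to 10. Pvalb, the calcium buffer parvalbumin, had means of 43.0 and 0.183 CPM. Of the genes of muscle energy metabolism, 15 of 26 were higher, with a median of 1.21. Pygm, the muscle glycogen phosphorylase, had a background in fat, at 4.84 to 6.22 CPM in Control 6 to 10, and lay at 19.1 to 69.5 CPM in Control 1 to 5. The slow fibre and heart list had 3 of 11 higher, and the list of muscle stem cells and myogenic factors 2 of 6. Those 2 were Myf6, a transcription factor of mature fibres, and Mstn, the growth inhibitor myostatin. Both had 0 counts in Control 6 to 10, and Control 1 to 5 lay at 0.329 to 1.10 CPM for Myf6 and at 0.345 to 0.771 CPM for Mstn.

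Promoters are shown for 3 genes of the muscle lists and for Fbxo40 from outside them, all high in the same libraries. For each gene a window that holds CAGCTG was picked, so its presence in the sequences shown is no result. Capitals mark the letters CAGCTG, an E-box of the kind that myogenic factors bind, read alike on both strands. In Myh4 they also mark a match to the MEF2 consensus and to the CArG box, and in Fbxo40 a match to the MEF2 consensus; the last letters of each run lie just before the RefSeq start (GRCm38.p6, 250 bases).
Myh4, chr11:67237562-67237811, strand +: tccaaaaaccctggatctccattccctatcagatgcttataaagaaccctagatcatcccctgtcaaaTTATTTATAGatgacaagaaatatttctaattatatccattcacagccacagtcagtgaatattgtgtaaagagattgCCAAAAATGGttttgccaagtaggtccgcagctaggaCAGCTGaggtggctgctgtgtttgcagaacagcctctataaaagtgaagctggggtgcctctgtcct
Mylpf, chr7:127211358-127211607, strand +: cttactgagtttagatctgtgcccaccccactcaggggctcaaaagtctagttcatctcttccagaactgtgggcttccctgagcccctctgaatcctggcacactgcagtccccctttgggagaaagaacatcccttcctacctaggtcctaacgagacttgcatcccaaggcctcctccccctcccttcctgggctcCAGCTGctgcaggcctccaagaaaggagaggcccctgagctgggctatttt
Atp2a1, chr7:126463074-126463323, strand -: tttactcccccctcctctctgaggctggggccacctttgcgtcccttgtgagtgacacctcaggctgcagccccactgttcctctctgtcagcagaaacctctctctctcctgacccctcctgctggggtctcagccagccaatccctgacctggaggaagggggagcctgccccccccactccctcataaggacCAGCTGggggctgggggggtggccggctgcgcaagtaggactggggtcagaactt
Fbxo40, chr16:36990468-36990717, strand -: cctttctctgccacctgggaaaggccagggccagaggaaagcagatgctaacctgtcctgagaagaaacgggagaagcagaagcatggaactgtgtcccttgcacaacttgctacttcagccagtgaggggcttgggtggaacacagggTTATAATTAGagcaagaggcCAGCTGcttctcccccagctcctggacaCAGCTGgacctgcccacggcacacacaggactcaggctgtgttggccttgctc

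The E-box began 67 bases before the start in Myh4, 51 in Mylpf, 55 in Atp2a1, and 81 and 53 in Fbxo40. RefSeq windows matched 73 of the 102 called genes by symbol. In the shares that follow, a gene with several windows counted when any of them held the letters. CAGCTG lay in the 250 bases before the start of 35 of these 73 (47.9%), against 1882 of 12443 tested genes with a window (15.1%) and 14.7% of all 27025 genes with a window. Among called genes outside the muscle lists it lay in 7 of 23 (30.4%), and among called muscle genes in 28 of 50 (56.0%). The MEF2 consensus lay in 15 of the 73 (20.5%), against 2.19% of tested genes with a window. These shares describe letters in a window and do not show that a factor binds there.

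The muscle transcripts of Control 3 differed in make-up from those of the other 4 libraries of its set. Of the counts of 5 myosin heavy chain genes (Myh1, Myh2, Myh4, Myh7 and Myh8), Myh4 took 42.2% in Control 3 (2598 of 6154 counts, exact 95% binomial interval 41.0% to 43.5%). Myh4 took 87.4% in Control 1, 89.2% in Control 2, 88.5% in Control 4, 91.2% in Control 5 and 89.3% in Restricted 1. Myh1 took 39.4% in Control 3 and between 4.96% and 8.48% in the other 5 libraries. Myh2 took 15.2% in Control 3 and between 3.52% and 4.56% elsewhere, and slow Myh7 took 3.09% in Control 3 and at most 0.587% elsewhere. The intervals cover counting error only, and each library is a single sample. Control 3 is also the only library of Control 1 to 5 marked No, and had the smallest total, 14306528 counts.

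**Figure D3:**
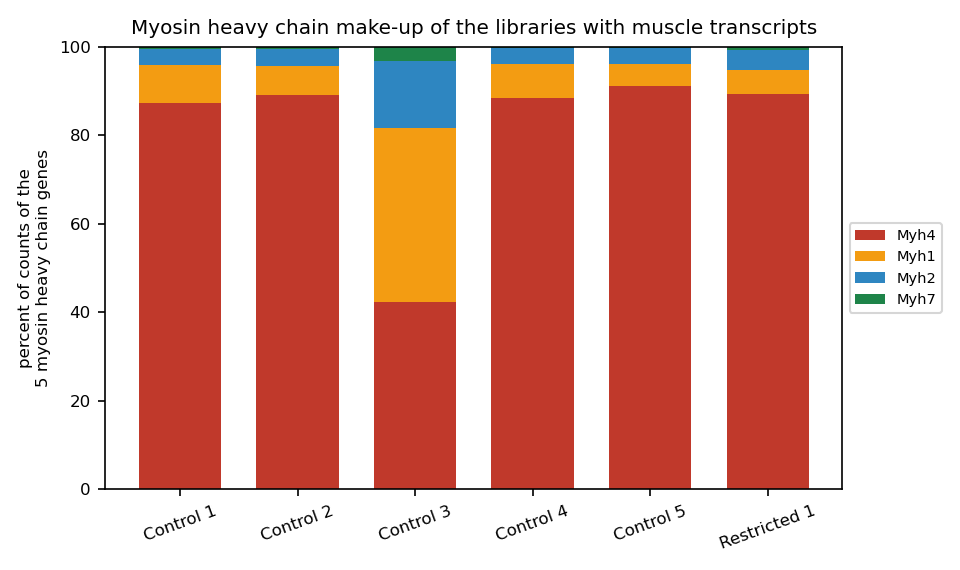
Percent of the counts of 5 myosin heavy chain genes taken by Myh4, Myh1, Myh2 and Myh7 in the 6 libraries with muscle transcripts, as stacked bars (Myh8 is too low to be seen). Myh4 takes 42.2% in Control 3 and 87.4% to 91.2% in the other 5.

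Across 42 called muscle genes of at least 5 CPM, each library's profile was centred on its own mean log2 CPM and Control 3 was set beside Control 1, 2, 4 and 5. In Control 3, 7 of the 42 were at least 2-fold lower and 8 at least 2-fold higher. Ttn was lower by the most, with a difference of -2.81 on the log2 scale, followed by Neb, the giant thin filament protein nebulin (-1.86), and Ppp1r3a, a glycogen-targeting phosphatase subunit (-1.60). The higher ones were led by Myh1 (2.53), Myh2 (2.05), Mb, the oxygen store myoglobin (1.81), and Atp2a1 (1.60). Mb itself was at 48.3 CPM in Control 3 and at 4.94 to 11.8 CPM in Control 1, 2, 4 and 5. Pearson's r across these 42 genes, which are not independent of each other, was 0.695 to 0.839 between Control 3 and the other 5 libraries, and 0.950 to 0.989 among those 5. The difference ran with exon length at Spearman's rho -0.30 and with the genomic span at -0.31.

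Of the 32 called genes outside the muscle lists, 26 were more than 1 on the log2 scale higher in Restricted 1 than in any other Restricted library, as were 64 of the 70 muscle genes; this held for 0.971% of all tested genes. In 30 of the 32 the Control sets did not overlap (1.24% of all tested genes for that direction), which follows from how these genes were called. With the muscle genes taken out before normalization and adjustment, 15 of the 17594 genes left were called, and without Control 3 the number outside the lists was 10. These 32 genes were called in 4 to 11 of 12 other settings and in 2 to 10 of 10 fits that left out 1 library. Cap2, Usp13, Sgca, Itgb1bp2, Myadml2 and Tmem233 were the 6 called in 2 of the 10. The mean of 7 of the 32 was under 1 CPM in both sets.

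Among named genes that followed Restricted 1, Klhl31, a kelch protein of striated muscle, was at 3.90, 2.51, 2.83, 4.11 and 4.14 CPM in Control 1 to 5. It had 0 counts in Control 6 to 9 and 0.122 CPM in Control 10, and 9.46 CPM in Restricted 1. Fbxo40, a ubiquitin ligase subunit of muscle, was at 3.38, 2.02, 3.17, 4.11 and 2.60 CPM in Control 1 to 5, at 0.0291 to 0.211 CPM in Control 6 to 10 and at 7.94 CPM in Restricted 1. Both genes had their 5 lowest Control values in replicates 6 to 10. Myo18b, a myosin needed to build sarcomeres, was at 2.43 to 5.11 and at 0 to 0.447 CPM. Mypn, the titin partner myopalladin, was at 0.470 to 2.41 and at 0 to 0.105 CPM. Rpl3l, the striated muscle form of ribosomal protein L3, was at 0.741 to 5.38 and at 0.0582 to 0.720 CPM. Tbx15, a T-box transcription factor found both in muscle fibres and in fat cell precursors, was at 1.32, 0.412, 2.14, 2.01 and 1.67 CPM in Control 1 to 5 and at 0.0582 to 0.244 CPM in Control 6 to 10. Its level in Restricted 1 was 2.20 CPM, and in the other 9 Restricted libraries at most 0.270 CPM. Tmem233 had 0 counts in all of Control 6 to 10 and was at 0.752, 0.0823, 2.55, 0.985 and 0.724 CPM in Control 1 to 5, highest in Control 3.

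The other called genes outside the lists are named here after their values were seen. Txlnb, a muscle taxilin, had a log2 difference of 3.35 (SE 0.24), with 3.17 to 7.24 CPM in Control 1 to 5 and 0.320 to 0.650 CPM in Control 6 to 10. Asb2, a ubiquitin ligase subunit, was at 3.85 to 6.20 and at 1.26 to 2.0 CPM, a log2 difference of 1.65 (SE 0.19). Tmem38a, the TRIC-A channel of the sarcoplasmic reticulum, was at 9.76 to 19.5 and at 5.29 to 7.93 CPM, so that its RNA was present in both sets. Fabp3, the fatty acid binding protein of heart and muscle, was at 0.948 to 5.24 and at 0.262 to 0.488 CPM, with its highest value in Control 3. Usp13, a deubiquitinase, was at 4.20 to 7.45 and at 2.88 to 3.53 CPM. The sodium channel subunit Scn4b and the sarcoglycan Sgca were the 2 of the 32 whose sets overlapped. Abra, Alpk2, Asb5, Cacng6, Dusp27, Itgb1bp2, Kcna7, Lrrc30, Myadml2 and 1110002E22Rik complete the protein-coding genes, each at most 4.17 CPM in any of the 20 libraries.

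**Figure D4:**
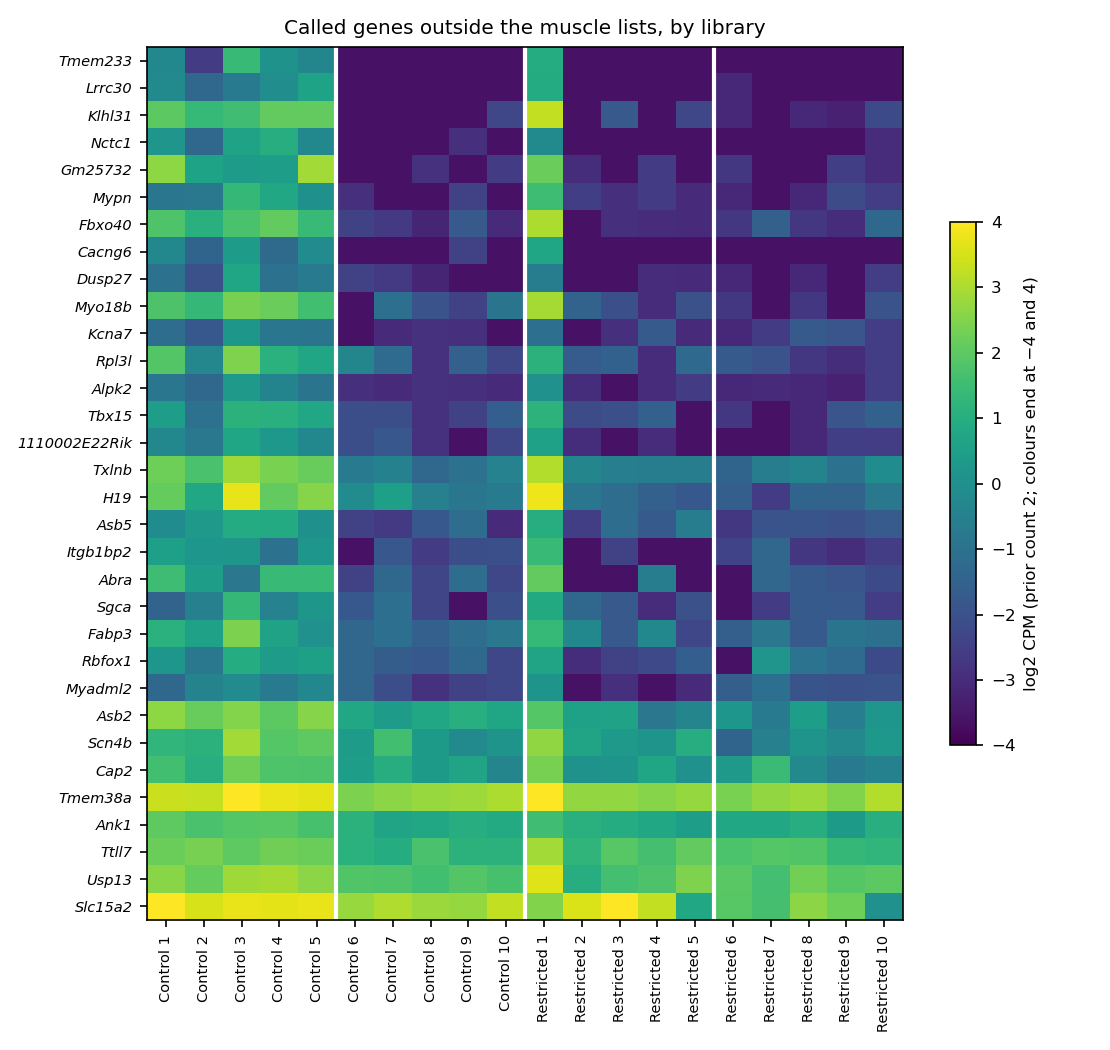
Log2 CPM (prior count 2, colours end at -4 and 4) of the 32 called genes outside the muscle lists in each of the 20 libraries, ordered by log2 fold change between the Control sets, with white lines between the groups of 5. Control 1 to 5 and Restricted 1 are bright in most rows, and the lowest row, Slc15a2, is dim in Restricted 1.

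Of the 102 called genes, 99 are annotated as protein-coding and 3 are not: H19, Nctc1 and Gm25732. H19, an imprinted long non-coding RNA (chr7:142575529-142577933, minus strand, GRCm38, gene span of the deposited table), was at 4.28, 1.65, 13.0, 4.15 and 5.82 CPM in Control 1 to 5. In Control 6 to 10 it was at 0.822, 1.34, 0.611, 0.474 and 0.528 CPM, a log2 difference of 3.10 (SE 0.33). Restricted 1 was at 13.7 CPM and the other 9 Restricted libraries at 0.0877 to 0.495 CPM. The highest Control value was again in Control 3. Nctc1, a non-coding transcript of muscle (chr7:142544609-142558596), begins within 250 kb of H19 and was at 1.03, 0.329, 1.45, 1.89 and 0.749 CPM in Control 1 to 5, with a single library above 0 in Control 6 to 10, at 0.0527 CPM. Protein-coding genes nearby that are on the muscle lists are left out here. Those outside the lists that are named next were not called. Igf2, the growth factor imprinted together with H19, differed by -0.10 (SE 0.37), Mrpl23 by -0.11 (SE 0.11), Lsp1 by 0.10 (SE 0.10) and Ctsd by -0.09 (SE 0.10) on the log2 scale. Gm25732, annotated as a miRNA gene of 60 bases on chromosome 4, was at 1.24 to 7.36 CPM and at 0 to 0.0813 CPM.

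Rn7sk, the polymerase III transcript that holds back transcription elongation, was not called in the main test but followed the same libraries, except Control 3. DESeq2, the fit with no filter on low counts and the fit of both diets without Restricted 1 did call Rn7sk. It was at 33.9, 13.0, 2.62, 23.5 and 39.03 CPM in Control 1 to 5 and at 1.44, 1.11, 0.960, 1.11 and 7.84 CPM in Control 6 to 10. Restricted 1 was at 75.6 CPM and the other 9 Restricted libraries at 0.707 to 2.95 CPM. The sets overlapped through Control 3 and Control 10. Ttn, too, had its lowest value of the set in Control 3. Malat1 and Neat1, abundant nuclear RNAs, differed by -0.08 (SE 0.15) and -0.02 (SE 0.09) on the log2 scale between the sets.

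Rule-based naming gave 5 called genes that were not muscle-list genes and did not stand more than 1 above the other Restricted libraries in Restricted 1. Slc15a2, a transporter of small peptides across the plasma membrane (chr16:36750177-36784962), was the exception among all 102. It was at 19.3, 11.2, 13.2, 12.8 and 13.2 CPM in Control 1 to 5 and at 6.68, 8.14, 6.81, 6.64 and 9.47 CPM in Control 6 to 10, a log2 difference of 0.86 (SE 0.16). The sets did not overlap. Restricted 1 was at 5.57 CPM, below Restricted 2, 3 and 4 at 11.6, 15.9 and 9.52 CPM, and Restricted 5 was at 1.65 CPM. Restricted 6 to 10 were at 3.68, 3.07, 6.03, 4.65 and 0.945 CPM. Slc15a2 was called in 4 of 12 other settings and in 3 of 10 fits that left out 1 library.

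Ank1, which encodes ankyrin 1 and, in muscle, a short form of the sarcoplasmic reticulum, was at 3.95, 3.17, 3.66, 3.73 and 3.12 CPM in Control 1 to 5 and at 1.5 to 2.11 CPM in Control 6 to 10. Ttll7, a tubulin glutamylase, was at 3.93 to 5.11 and at 1.86 to 3.14 CPM, a log2 difference of 0.95 (SE 0.16). Cap2, an actin-regulating protein of striated muscle, was at 1.98 to 4.76 and at 0.691 to 1.90 CPM. Rbfox1, a splicing regulator of muscle and brain, was at 0.494 to 1.86 and at 0.122 to 0.316 CPM. Restricted 1 was the highest Restricted library for each of these 4 genes, by 0.46, 0.81, 0.92 and 0.50 on the log2 scale, so that Slc15a2 alone of the 5 did not have its highest Restricted value there. The part of muscle RNA in the difference of Slc15a2 was not tested.

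Outside muscle, the fixed gene lists showed small differences. Of the 34 other lists, 33 had no called member; the smooth muscle list had 1 of 16, Des, the intermediate filament desmin, which is also on the sarcomere list. Medians lay within 0.25 of 0 on the log2 scale in 31 of the 34. Among the adipocyte identity genes (25 tested), the median was -0.07, and Adipoq differed by -0.04 (SE 0.10). Lep, the satiety hormone leptin, was at 819 to 1147 CPM in Control 1 to 5 and at 872 to 1525 CPM in Control 6 to 10, a log2 difference of -0.25 (SE 0.16). Scd1, the desaturase that makes monounsaturated fatty acids, differed by -0.08 (SE 0.09), and the fatty acid elongase Elovl6 by -0.02 (SE 0.18). Medians were -0.16 for fatty acid and triglyceride synthesis, -0.16 for lipolysis, -0.06 for nuclear genes of oxidative phosphorylation and -0.09 for fatty acid oxidation. In the last list, Cpt1b, the carnitine palmitoyltransferase of muscle and brown fat, had the largest value, 0.99 (SE 0.42), and 22 of 23 members lay below 0. Some other lists leaned the same way. Members above 0 were 2 of 19 for lipolysis, 4 of 30 for synthesis, 7 of 43 for oxidative phosphorylation and 6 of 25 for adipocyte identity. Further lists leaned up, with 24 of 26 above 0 for the interferon response, 12 of 13 for nerve and Schwann cells and 20 of 28 for extracellular matrix. Over all tested genes 51.8% lay above 0. Signs within each label were not counted for these lists. For the 9512 genes at 10 CPM or more, the unadjusted 95% interval of the log2 difference had a median half-width of 0.188. A call needs an adjusted p, so differences beyond this width can go uncalled, such as Asns at -0.31 (SE 0.08).

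**Figure D5:**
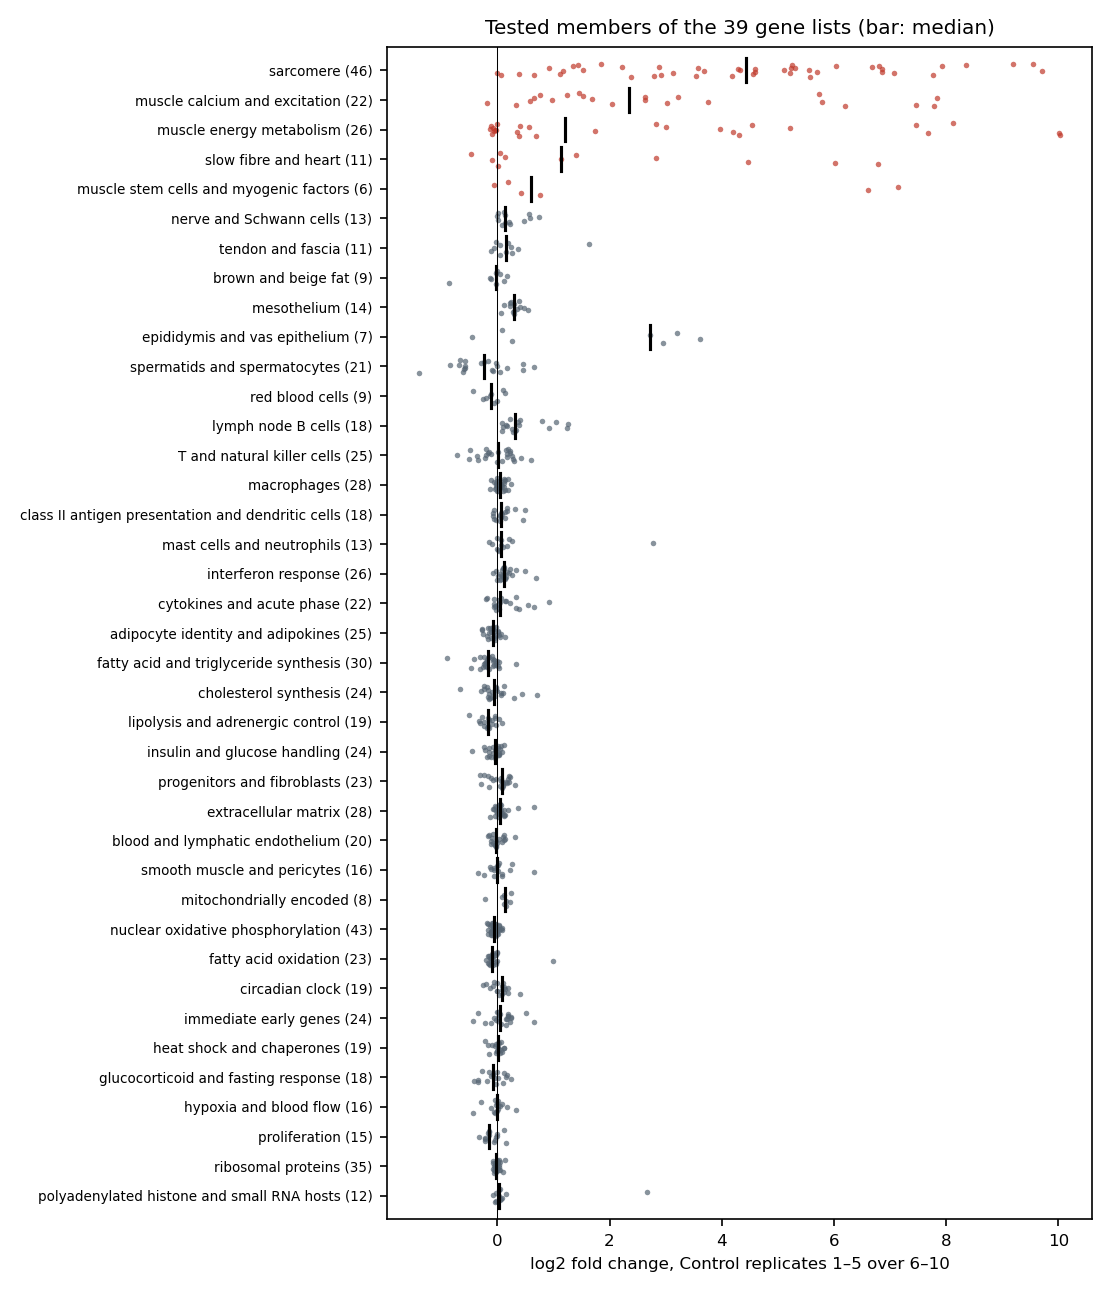
Log2 fold change between the Control sets of every tested member of the 39 gene lists, with the number tested in parentheses, muscle lists in red and a black bar at each median. The sarcomere list has a median of 4.44, and of the 34 other lists that of the epididymis list, 2.72, is the highest.

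Immune and adjoining tissue lists were checked in the same way. All 18 tested B cell genes lay above 0, with a median of 0.32 and 0 called. Igkc, the constant part of the kappa light chain, was at 107, 128, 40.6, 161 and 214 CPM in Control 1 to 5 and at 93.2, 97.8, 51.5, 27.0 and 41.0 CPM in Control 6 to 10, and overlapped. Its log2 difference was 1.93 in the libraries marked Yes alone and -1.24 in those marked No alone, which are Control 3 against Control 6 and 7. Igkc and Jchain, the joining chain of secreted antibodies, were called without Control 3 and within each label. Ighd, the heavy chain of naive B cells, was at 3.99 to 5.38 and at 3.33 to 4.13 CPM. Of the 14 mesothelial genes, which mark the lining of the fat pad, all lay above 0, with a median of 0.30 and 0 called. Among the libraries marked Yes alone 2 of the 14 lay above 0, and among those marked No alone all 14. Msln, the surface protein mesothelin, had a log2 difference of -0.52 in the first and of 2.06 in the second. The T and natural killer cell list had a median of 0.02, macrophages 0.05 and the interferon response 0.12. Nerve and Schwann cell genes had a median of 0.14, tendon and fascia 0.15 and brown and beige fat -0.02. Members of a list share cells and libraries and are no replicates.

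Epididymal genes had the highest median of the other lists, 2.72, and none was called. Crisp1, a sperm-coating protein of the epididymis, was at 237 CPM in Control 1 and 35.9 CPM in Control 6, and at most 4.92 CPM in the other 8 Control libraries. Adam7 was at 82.5 CPM in Control 1 and 16.3 CPM in Control 6. Genes of spermatids and spermatocytes had a median of -0.23. Prm1, a sperm protamine, was highest in Control 6, which is marked No, at 6.47 CPM, and next highest in Control 2, at 2.31 CPM.

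Large differences that were not called mostly came from 1 library. Outside the muscle lists, 54 uncalled genes that averaged 1 CPM or more over the 10 Control libraries were at least 4-fold higher in Control 1 to 5 by the fitted fold change, which allows for the label, and 0 were at least 4-fold lower. By the ratio of the set means, 45 of the 54 were at least 4-fold higher, and 1 was lower. In 49 of the 54, 1 library held over 50% of the summed CPM of the 10. Control 1 was the highest library in 28 of the 54, and Control 2 in 15. Pomc, the precursor of several pituitary hormones, was at 1255 CPM in Control 2, at 6.64 CPM in Control 9 and at most 1.38 CPM in the other 8. Awat2, an acyltransferase of sebaceous glands, was at 67.1 CPM in Control 2 and at most 0.759 CPM in the others. These genes are named after their values were seen.

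No gene was called lower in Control 1 to 5 in the main test. The sets did not overlap in 270 tested genes (1.52%), of which 220 were higher (1.24%) and 50 lower (0.282%) in Control 1 to 5. Outside the muscle lists 141 were higher (0.801%) and 50 lower (0.284%). Among uncalled genes averaging 1 CPM or more over the 10 libraries, 44 were lower, by a median of -0.16 on the log2 scale, and 78 were higher, by a median of 0.26. Asns, asparagine synthetase, was at 68.4 to 77.1 CPM in Control 1 to 5 and at 81.9 to 106.5 CPM in Control 6 to 10, a log2 difference of -0.31 (SE 0.08). Mlst8, a subunit of mTOR complexes, was at 15.6 to 18.7 and at 19.6 to 23.3 CPM, a difference of -0.29 (SE 0.07). Among the higher ones, Sh3bgr was at 1.77 to 4.90 and at 0.360 to 1.11 CPM, and at 4.0 CPM in Restricted 1. Eef1a2, the elongation factor of muscle and neurons, was at 3.52, 4.94, 15.0, 6.42 and 3.57 CPM in Control 1 to 5 and at 0 to 3.42 CPM in Control 6 to 10. These genes, too, were chosen after their values were seen. Uncalled here refers to the main test: DESeq2 called Asns and Sh3bgr, and limma-voom called Eef1a2.

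The same numbering was then tested among the Restricted libraries, which shared no sample with the Control contrast. The edgeR quasi-likelihood test called 0 of 17478 genes, with 954 at an unadjusted p under 0.05 (5.46%) and a smallest adjusted p of 0.245. Limma-voom called 0 and DESeq2 14. Without Restricted 1, 0 of 17457 were called, with 1308 at an unadjusted p under 0.05 (7.49%). Since the Restricted libraries marked Yes are Restricted 1, 2 and 3, the label takes up most of the first set, and this contrast rests on Restricted 4 and 5 against Restricted 6 to 10. With no label term, 0 of 15805 genes were called in 10 libraries (878 at an unadjusted p under 0.05, 5.56%) and 0 of 16071 without Restricted 1 (1029, 6.4%). Set and label can be told apart among the Restricted libraries only through those 2 libraries.

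Restricted 10, which held smaller amounts of muscle transcripts, stayed in the second set of the fits that follow. Of the 32 genes called outside the muscle lists, 12 could be tested with the label and without Restricted 1. Of these, 7 lay above 0, as in the Control libraries, against 47.3% of all genes. An unadjusted p under 0.05 was reached by 0 of the 12, against 7.49% of all genes. Without the label or Restricted 1, 10 were tested and 8 lay above 0, against 48.5% of all genes. An unadjusted p under 0.05 was reached by 2 of them, against 6.4% of all genes. Those 2 were Slc15a2 and Scn4b, named after their values were seen. Slc15a2 had a log2 difference of 1.39 (SE 0.55, adjusted p = 0.677, edgeR quasi-likelihood) in that fit, and of 0.59 (adjusted p = 0.844) with the label. The difference of Slc15a2 therefore did not pass the test among the Restricted libraries, and the 9 libraries left its interval wide.

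Klf14, an imprinted transcription factor that acts in adipocytes, had 1 of the smallest p-values of the Restricted contrast. It was at 10.4, 10.3, 6.85, 10.7 and 10.04 CPM in Restricted 1 to 5 and at 4.08, 4.52, 5.15, 3.97 and 4.81 CPM in Restricted 6 to 10, without overlap. The log2 difference of 1.21 had an adjusted p of 0.245 (edgeR quasi-likelihood). In the Control libraries Klf14 was at 3.52, 4.32, 4.42, 3.34 and 2.75 CPM in replicates 1 to 5 and at 4.47, 7.91, 5.67, 3.42 and 3.70 CPM in replicates 6 to 10, a log2 difference of -0.36 (SE 0.22). DESeq2 called both Klf14 and Dnah3 in the Restricted contrast. Dnah3, an axonemal dynein, differed by 1.23 (adjusted p = 0.245) among the Restricted libraries, from 8.73 to 13.8 CPM against 4.44 to 7.06 CPM, and by -0.31 (SE 0.23) in the Control libraries. In the same contrast Tgfb1, a growth factor of tissue fibrosis, and Gpat3, an acyltransferase of triglyceride synthesis, each had an adjusted p of 0.777 with the same edgeR test, and DESeq2 called both.

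Lists were read in the Restricted contrast by counts. Of 24 immediate early genes, 15 had an unadjusted p under 0.05 and a lower value in Restricted 1 to 5, with a median of -0.65, where 5.46% of all genes had such a p in either direction. None passed adjustment with edgeR, and DESeq2 called Fos. Without the label or Restricted 1, 7 of the 24 were left, with a median of -0.30 (6.4% of all genes). Between the Control sets the same list had a median of 0.05 and 0 called. All 8 tested mitochondrially encoded genes were higher at an unadjusted p under 0.05 with the label and without Restricted 1, with a median of 0.38 (7.49% of all genes), and 0 were so without the label, with a median of 0.04 (6.4% of all genes).

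The difference between the diets in the difference between the sets takes its Control side from the libraries that chose the sets, so it is given as a description. Over all 20 libraries, 0 of 17813 genes were called by edgeR, with 677 at an unadjusted p under 0.05 (3.8%), and DESeq2 called 5. Without Restricted 1, 33 of 17827 were called (0.185%), 1 higher and 32 lower in the Restricted difference. Of these, 32 were also called between the Control sets and 29 were on the muscle lists. Restricted 1, the library left out, held muscle transcripts, and Restricted 10, which held smaller amounts, stayed in. The part of either library in these calls was not tested. The 4 others were Klf14, Fbxo40, Txlnb and Myadml2.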

How the data were processed

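The authors deposited 1 table of read counts, as whole numbers, for 55401 genes in 20 libraries. The labels' protocols name Trizol and RNeasy for extraction, the Universal Plus mRNA-seq kit (Tecan) and 52-bp paired-end reads. The submitters' processing notes list bcl2fastq 4.0.3, STAR, Salmon and GRCm38, with no role or order. The sources used here do not state the counting tool, annotation release or strand setting, so an overlapping antisense gene can add to a count, and near-identical genes (actins, myosins, immunoglobulin segments) can share reads.

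The test of the counts was that of edgeR 4.0.16, run in R 4.3.3 (TMM, filterByExpr minimum count 10, quasi-likelihood, label and number set as terms, two-sided, Benjamini-Hochberg at 0.05). CPM are counts per tested-gene total times the TMM factor of a 20-library fit. Log2 CPM used a prior count of 2. Alternatives were DESeq2 1.42.0, limma-voom 3.58.1, RLE factors, other filters, other terms and each library left out; 2 were added after the data were seen. Steps were tested on simulated data. No pair of replicates agreed within sampling noise (lowest chi-square over degrees of freedom 9.17).

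Muscle genes are those of 5 lists. Named were called genes with at least 1 CPM in a set, the same sign under both labels and a proper name: up to 12 without and 8 with a level in Restricted 1 over 1 (log2) above the other Restricted libraries, 4 per list by p, 8 each way in the Restricted contrast (1 result is not reported here), and Ckm, Myh4, Ttn, Lep, Adipoq, Scd1 and Elovl6. The libraries, lists and rules were chosen with earlier results of these data known. Promoters are RefSeq windows, GRCm38.p6. Tables and figures used Python with pandas and matplotlib.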

Additional observations from a re-analysis of the deposited data

Results flagged for a closer look

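In 122 groups of 5 libraries, 9 had a highest or lowest library set apart from the other 4 by Dixon's 95% limit, where chance gives about 1 in 20. In mean log2 CPM over a list, brown and beige fat genes were lowest in Control 3, at 2.38 (others 3.05 to 3.26). Epididymal genes were highest in Control 1, at 4.8 (others -0.784 to -0.245). In Control 6 to 10, mitochondrially encoded genes were highest in Control 9, at 10.1 (others 9.54 to 9.69), and circadian clock genes lowest in Control 6, at 5.05 (others 5.2 to 5.23).

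In log2 CPM of single genes, Ckm was lowest in Control 2, at 5.67 (others 6.68 to 6.99). Within Control 6 to 10, Ttll7 stood apart in Control 8, at 1.69 (others 0.955 to 1.13), and Rn7sk in Control 10, at 2.99 (others 0.0582 to 0.604). Klhl31 was at -2.3 in Control 10 and Nctc1 at -2.9 in Control 9, where the other 4 libraries had 0 counts. With 4 libraries tied, any count in the fifth passes the limit, so the chance rate does not hold for Klhl31 and Nctc1.

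Outside the muscle lists, edgeR's quasi-likelihood test called 4 genes for a difference between the diets in the difference between the number sets once Restricted 1 was left out. Klf14 had a value of 1.64 on the log2 scale, Fbxo40 of -6.96, Myadml2 of -5.03 and Txlnb of -3.0. The Control side of each value comes from the libraries that chose the sets, so the values are descriptions. For Fbxo40, Myadml2 and Txlnb, which were called between the Control sets, they restate that choice. With all 20 libraries edgeR called none of the 4.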

How the results depend on the processing

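No paired analysis was possible because the sets compared share no replicate number. Between the Control sets 102 genes were called, 32 outside the muscle lists and 0 lower. DESeq2 called 64 outside and 5 lower, no filter on low counts 60 and 1, a minimum count of 50 left 16 outside, no label term 20 and an RNA integrity term 17. The libraries marked No alone, 1 (Control 3) against 2 (Control 6 and 7), gave 160 genes, 101 outside and 18 lower, and those marked Yes alone 65 and 10. One fit of 20 libraries called 0 (0 outside), and removing the muscle genes left 15, all 15 outside. Leaving out 1 library gave 59 (without Control 3) to 110 (without Control 2) genes, 10 to 37 outside and 0 to 1 lower. Between the Restricted sets, 0 in the main test, DESeq2 called 14 (14 outside) and no filter 4 (4 outside). For the difference between diets, 0 in the main test, DESeq2 called 5 (5 outside) and a sarcomere term 21 (21 outside). Leaving out 1 library there gave 0 to 33, 0 to 4 outside, with 33 without Restricted 1. The causes of these shifts were not tested. With 5 libraries a set, genes under 1 CPM rest on few counts.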

Other observations

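Genes with 1 high library formed groups that the labels do not name, chosen here after their values were seen. In Control 2, Krt14, a keratin of basal epidermis, was at 26.3 CPM, and Pcsk2, a protease that cleaves hormone precursors such as that of Pomc, at 15.8 CPM. In Control 1, the epididymal genes Spink8 and Ces5a were at 122 and 121 CPM, with Control 6 next at 20.9 and 20.2 CPM.

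Of the 44 uncalled genes that were lower in Control 1 to 5 without overlap, 34 also lay below 0 in the Restricted contrast without Restricted 1, where 52.6% of all tested genes did. In that contrast 3 of the 44 had an unadjusted p under 0.05, against 7.49% of all genes, and 0 passed adjustment with edgeR's quasi-likelihood test. Of the 78 higher ones, 60 lay above 0 there, against 47.3% of all genes, and 8 had an unadjusted p under 0.05. That contrast has the label as a term and rests on Restricted 4 and 5 against Restricted 6 to 10. The genes share these libraries and are no replicates, and the fit without the label was not counted for them.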
